A study of Homo sapiens with 11 samples.

Results

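The pCCNE1 knockdown in primed H1 cells was described from 2 of the 11 RNA sequencing libraries of the series, the pCCNE1 shRNA library and the control shRNA library of the same culture. H1 is an established human embryonic stem cell line, and both libraries came from H1 cells grown in primed medium and collected at day 5 of a lentiviral infection. One library carried a control short hairpin RNA (shRNA), and the other an shRNA aimed at pCCNE1, which the title of the series describes as alternative splicing of CCNE1 specific to primates. CCNE1 is the gene of cyclin E1. A further library of the same culture carried an shRNA named uCCNE1, whose target form the labels do not spell out. Its values are given beside the others, and since it shares the control library with the pCCNE1 comparison, the pair is not independent. The remaining shRNA libraries, 6 in number, came from H7 cells in the naive medium 5iLA and from H1 cells in the naive medium t2iGo, with the same 3 shRNAs. The labels name no clone, no second hairpin and no replicate culture. With 1 library on each side, no spread between replicates exists in primed H1, so differences there are described without a test.

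Cyclin E1 binds the kinase CDK2 and drives cells from G1 into DNA replication, and its splice forms can differ in the parts of the protein that remain. Primed human embryonic stem cells resemble the epiblast after implantation. They depend on FGF and on NODAL or activin signals, which hold NANOG and POU5F1 on, and in the absence of these signals they readily turn towards forebrain fate. Naive media such as 5iLA and t2iGo hold cells in an earlier, preimplantation-like state, and the same hairpins were used there.

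A deposited level is an RPKM, the reads of a gene scaled by the length of its transcript and by the depth of the library. A difference is always the pCCNE1 library minus the control library on the log2(RPKM + 1) scale, which understates the change of low genes. A gene was counted as apart where this difference reached 1, a 2-fold change on that scale. Depth was estimated from what 1 read is worth in low genes, and came to about 18800000 reads in the control library and about 23500000 in the pCCNE1 library, so that 1 read on a 2 kb transcript stood for 0.0266 and 0.0213 RPKM. Of 23287 genes, 12116 had a mean of at least 1 RPKM over the 9 shRNA libraries and were compared. Their median read number was 585 in the control and 697 in the pCCNE1 library. Intervals on folds of RPKM below are exact 95% binomial (Clopper-Pearson) intervals from these estimated reads, and they cover counting error only, since the reads carry no molecular identifiers.

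Both libraries held the transcripts of primed pluripotent cells. POU5F1 stood at 274.5 RPKM in the control and 344.3 in the pCCNE1 library, and the surface marker CD24 at 1014 and 1088 RPKM. The 19 naive markers found in the table summed to 5.91 and 4.77 RPKM, and KLF17 was listed at 0 in the control and at 0.0132 RPKM in the pCCNE1 library. Markers of blood were nearly absent, all 12 of them being under 1 RPKM in both libraries, with sums of 1.12 and 1.15 RPKM and CD3E, TYROBP, SPI1, HBB and HBG1 at 0 in both. The 10 endothelial markers summed to 28.5 and 49.1 RPKM, most of it KDR, which primed stem cells also express, while PECAM1 stood at 0.0113 and 0.0091 RPKM and EMCN at 0 in both. The 16 fibroblast and feeder markers summed to 309 and 374 RPKM. In that list COL1A1 was lower with the pCCNE1 shRNA (20.6 and 5.53 RPKM), THY1, which primed cells also carry, was higher (94.5 and 194.7 RPKM), DCN stayed under 1 RPKM and FAP was at 0 in both. The part of other cells in the differences below was not tested.

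In the pCCNE1 library, 112 genes (0.924% of those compared) were at least 2-fold higher than in the control and 437 genes (3.61%) at least 2-fold lower. All 108 higher and 434 lower genes with a known transcript length had a counting interval that did not cross equality. The same values picked the genes and gave the intervals, so this was largely fixed by the choice and lends the calls no further support. Most of the lower genes were rich in G and C. The Spearman correlation between the difference and the GC content of the transcript was -0.592 across 11965 genes, which share the same pair of libraries. With the genes in 5 equal bins by GC content, the median difference was 0.17 in the lowest bin (29.6% to 41.3% GC) and -0.54 in the highest (58.1% to 72.8%). The highest bin held 351 of the lower genes, 14.7% of its 2393 members, against 6 in the lowest bin. Length had a weaker trend, with a correlation of 0.146. The uCCNE1 library had a GC trend against the same control of -0.328, and the pCCNE1 comparison had one of 0.055 in 5iLA and -0.531 in t2iGo.

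**Figure D1:**
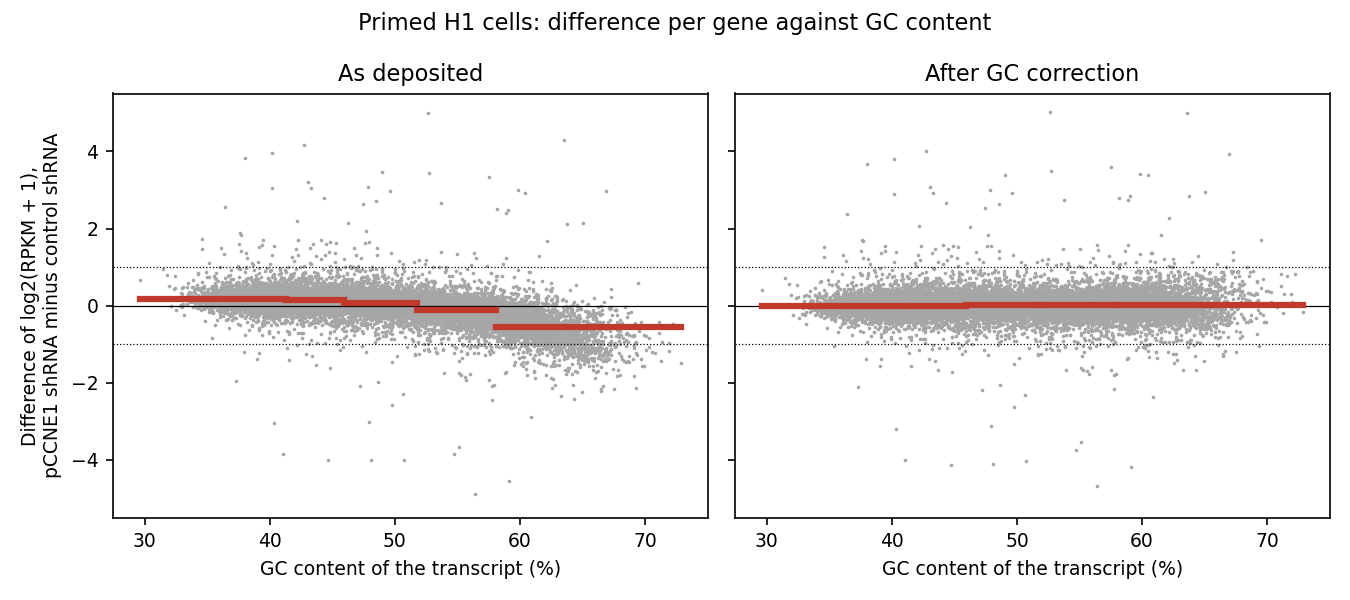
Difference of log2(RPKM + 1) between the pCCNE1 and control libraries of primed H1 (vertical axis) against the GC content of the transcript in percent (horizontal axis), 1 point per gene, as deposited on the left and after the GC correction on the right. Red bars span the 5 bins of genes by GC content at their medians, dotted lines mark a 2-fold change, and the deposited medians go from 0.17 in the lowest bin to -0.54 in the highest.

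Each difference was therefore also computed after a smooth trend on GC content had been subtracted from it, and both values are given for most genes whose difference is stated, the deposited one first. A value that stands alone is the deposited one unless it is called corrected. After this correction 117 genes (0.978% of 11965) were at least 2-fold higher and 104 (0.869%) at least 2-fold lower. These shares, with 0.924% and 3.61% as deposited, are the background for the counts in every list below. Among all genes apart, the share that was higher went from 20.4% to 52.9%. Of the higher genes 90 of 108 were still at least 2-fold higher, and of the lower genes 94 of 434 were still at least 2-fold lower. The median over all genes was 0.008 as deposited and 0.004 corrected. The gene-rich, GC-rich chromosome 19 had a median of -0.35 over 866 genes as deposited and -0.07 corrected, and chromosome 4 had 0.12 and 0.01 over 444 genes. Whether the GC trend came from the libraries or from the cells was not tested, and with 1 library a side the 2 cannot be told apart. Fewer cells of a type and less RNA per cell cannot be told apart either in these bulk samples.

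CCNE1 itself, on chromosome 19, differed little. Its level was 11.95 RPKM with the control, 10.55 with the pCCNE1 shRNA and 6.75 with the uCCNE1 shRNA. The pCCNE1 library had 0.88 times the control level (95% counting interval 0.776 to 1.003), a difference of -0.17 (-0.12 corrected). A gene-level RPKM sums the splice forms, so the targeted form was not measured and this value is no check of the knockdown. Under the same shRNA CCNE1 fell further in the naive cultures. It went from 14.1 to 8.38 RPKM in 5iLA (-0.69) and from 9.65 to 5.25 RPKM in t2iGo (-0.77). The gap between primed and naive did not pass the test described below. In primed H1 the sister gene CCNE2 stood at 1.64 and 1.45 RPKM, with an interval of 0.651 to 1.202 around a fold of 0.88. CDK2, the partner kinase of cyclin E, was at 17.7 and 25.7 RPKM (0.51, corrected 0.53), the G1 cyclin CCND2 at 16.4 and 28.8 (0.78, corrected 0.66) and the CDK inhibitor CDKN1B at 16.7 and 14.95 RPKM (-0.15, corrected -0.24). Among 25 compared genes of G1 cyclins, CDKs, their inhibitors and E2F and RB proteins, none was apart by 2-fold in either direction, as deposited or corrected, and the median was -0.10 (0.03 corrected).

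The genes furthest below control among coding genes of at least 5 RPKM were PKIB, LHX5 and CYP26A1. PKIB, an inhibitor of the cAMP-dependent protein kinase, went from 21.5 RPKM with the control to 1.75 with the pCCNE1 shRNA, a 12.2-fold lower level, with 5.94 in the uCCNE1 library (difference -3.03, corrected -3.19). The LIM homeobox factor LHX5 was 22.1-fold lower, at 9.48 and 0.430 RPKM, with 0.287 in the uCCNE1 library (-2.87, corrected -2.37). CYP26A1, the cytochrome P450 that breaks down retinoic acid, was 6.83-fold lower, at 41.0 and 6.01 RPKM, with 3.10 in the uCCNE1 library (-2.58, corrected -2.64). PKIB and CYP26A1 were slightly further below control after the correction and LHX5 slightly less far. LHX5 was under 1 RPKM in every library but the primed control and passed the expression limit only through that library.

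Many of the next lowest genes had GC-rich transcripts and came closer to control with the correction. NDUFB7 and NDUFS7, subunits of respiratory complex I, stood at 79.6 and 16.2 RPKM (-2.23, corrected -1.43) and at 19.6 and 3.47 RPKM (-2.21, corrected -1.30). The ATP synthase subunit ATP5D stood at 26.3 and 5.204 RPKM (-2.14, corrected -1.03). The extracellular matrix chains COL9A3 and LAMA5 differed by -2.16 (corrected -1.19) and -2.15 (corrected -1.25), the cytokine MIF by -2.09 (corrected -1.17) and the apoptosis regulator SIVA1 by -2.34 (corrected -1.66). PKDCC, a secreted kinase, went from 84.6 to 14.98 RPKM (-2.42, corrected -1.67). FAM71F1 (20.7 and 3.44 RPKM) and the sorting nexin SNX15 (11.6 and 1.98 RPKM) kept differences of -2.32 and -1.81 after correction. The ephrin receptor EPHA4 (23.3 and 6.96 RPKM), the neuronal pentraxin NPTX1 (41.9 and 10.2 RPKM) and the inhibin subunit INHBE (29.8 and 8.13 RPKM) joined the 15 lowest after correction, at -1.73, -1.67 and -1.67. RPLP1, a ribosomal stalk protein, went from 1186 to 218.4 RPKM, but ribosomal protein genes share reads with many pseudogene copies and this value is uncertain.

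The genes furthest above control were fewer than those below it as deposited (112 and 437), but not after correction (117 and 104). GNA14, an alpha subunit of Gq-class G proteins, stood at 1.48 RPKM in the control, 2.31 in the uCCNE1 and 14.3 in the pCCNE1 library, a 9.65-fold higher level (2.62, corrected 2.53). CTSK, the collagen-cleaving protease cathepsin K, stood at 2.67, 2.88 and 15.3 RPKM in the same order (2.16, corrected 2.05). The chemokine CXCL5 (3.05, 3.94 and 13.96 RPKM), butyrylcholinesterase BCHE (2.96, 2.45 and 13.2 RPKM) and the nucleotide receptor P2RY1 (6.39, 5.71 and 22.8 RPKM) were each high in the pCCNE1 library alone of the 3. Their differences after correction were 1.71, 1.66 and 1.54. The neurotensin precursor NTS went from 19.5 to 66.5 RPKM (1.72, corrected 1.52), and RND3, a small GTPase that opposes actin contractility, from 8.31 to 29.2 RPKM (1.7, corrected 1.53). The cAMP phosphodiesterase PDE4B (1.81 and 7.88 RPKM) and METTL7A (1.696 and 7.84 RPKM) were also raised in the uCCNE1 library, to 6.27 and 4.74 RPKM. COL5A2, a chain of type V collagen, stood at 7.27 and 24.8 RPKM (1.64, corrected 1.55). RPL21 was listed at 0.0001 RPKM in the control and 7.43 in the pCCNE1 library, the read-through gene RPS10-NUDT3 at 1.30 and 14.96 and MAGED4, which has a near-identical copy, at 0.298 and 5.85. How reads were split between such copies is not given in the sources used here, and no fold is given for these 3 genes.

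NANOG and 4 genes of the NODAL list were higher with the pCCNE1 shRNA, while other core factors lay on both sides of control. NANOG, which NODAL and activin signals sustain through SMAD2 and SMAD3, stood at 18.7 RPKM in the control, 25.5 in the uCCNE1 and 51.2 in the pCCNE1 library, 2.73-fold higher than control (95% counting interval 2.59 to 2.88; 1.40, corrected 1.28). SOX2 stood at 151.4 and 100.6 RPKM (-0.59, corrected -0.61), SALL4 at 51.0 and 32.7 (-0.63, corrected -0.64) and POU5F1 differed by 0.33 (corrected 0.60). LIN28A, the most abundant member, was at 432.4 and 354 RPKM (-0.29, corrected -0.37). The 18 compared core genes had a median of 0.04 (0.02 corrected), with NANOG and GDF3 at least 2-fold higher and none lower, and after correction FOXD3 as a further one (0.40, corrected 1.13).

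Of the NODAL ligands and their kin, NODAL itself was level at 1.47 and 1.45 RPKM, and GDF3 stood at 2.55 and 8.09 RPKM, with 6.79 in the uCCNE1 library (1.36, corrected 1.30). LEFTY1 and LEFTY2 are secreted antagonists of NODAL and direct targets of its signal. LEFTY2 stood at 0.989, 0.932 and 10.001 RPKM in the control, uCCNE1 and pCCNE1 libraries (2.47, corrected 2.83), and LEFTY1 at 1.97, 1.35 and 8.54 RPKM (1.68, corrected 2.28). Both were high in the pCCNE1 library alone, though their sequences are near-identical and reads could be shared between them. The inhibitory SMAD7, another target, stood at 3.33 and 8.09 RPKM (1.07, corrected 1.40) and the SMAD repressor SKIL at 8.60 and 16.3 (0.85, corrected 0.69). Among receptors and mediators, ACVR1B stood at 13.1 and 12.6 RPKM, SMAD2 at 6.01 and 7.19 and SMAD4 at 11.8 and 11.5. The cofactor FOXH1 was lower, at 23.4 and 12.002 RPKM (-0.91), of which -0.23 was left after correction. The mesendoderm targets EOMES (0.811 and 0.473 RPKM), MIXL1 (1.41 and 0.824 RPKM) and CER1 (2.46 and 2.28 RPKM) were low in both libraries. In all, 4 of 20 compared members were at least 2-fold higher and none lower, before and after correction, while the list's median was 0.12 (0.07 corrected). Over all genes compared 0.924% were at least 2-fold higher, and 0.978% after correction.

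Members of the FGF and ERK list lay far from control on both sides. DUSP6, a phosphatase that switches off ERK and is read as a gauge of the pathway, stood at 35.4 RPKM in the control, 44.1 in the uCCNE1 and 101.8 in the pCCNE1 library (1.5, corrected 1.39). The ETS factors ETV5 and ETV4 stood at 7.91 and 24.2 RPKM (1.5, corrected 1.42) and at 20.4 and 38.4 RPKM (0.88, corrected 1.37). The Sprouty inhibitors SPRY4 (15.2 and 37.5 RPKM), SPRY1 (10.3 and 19.3 RPKM) and SPRY2 (28.8 and 46.2 RPKM) differed by 1.25, 0.84 and 0.66, and by 1.45, 0.72 and 0.55 corrected. The immediate early factors EGR1 and FOS were lower, EGR1 at 76.6, 20.6 and 29.3 RPKM in the control, uCCNE1 and pCCNE1 libraries (-1.36, corrected -1.21) and FOS at 46.5, 23.0 and 20.8 RPKM (-1.12, corrected -1.09). The ligand FGF2 stood at 23.5 and 16.7 RPKM (-0.47, corrected -0.64). Receptors leaned lower before correction, with FGFR3 at 11.3 and 3.26 RPKM (-1.53, corrected -0.93), FGFR4 at 23.0 and 12.3 RPKM (-0.85, corrected -0.15) and FGFR2 at 38.8 and 27.3 RPKM (-0.49, corrected -0.51). Of 24 compared members, 3 were at least 2-fold higher and 3 lower as deposited, and 5 and 2 after correction. The shares over all genes were 0.924% higher and 3.61% lower as deposited, and 0.978% and 0.869% after correction. The list's median was 0.20 (0.19 corrected).

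**Figure D2:**
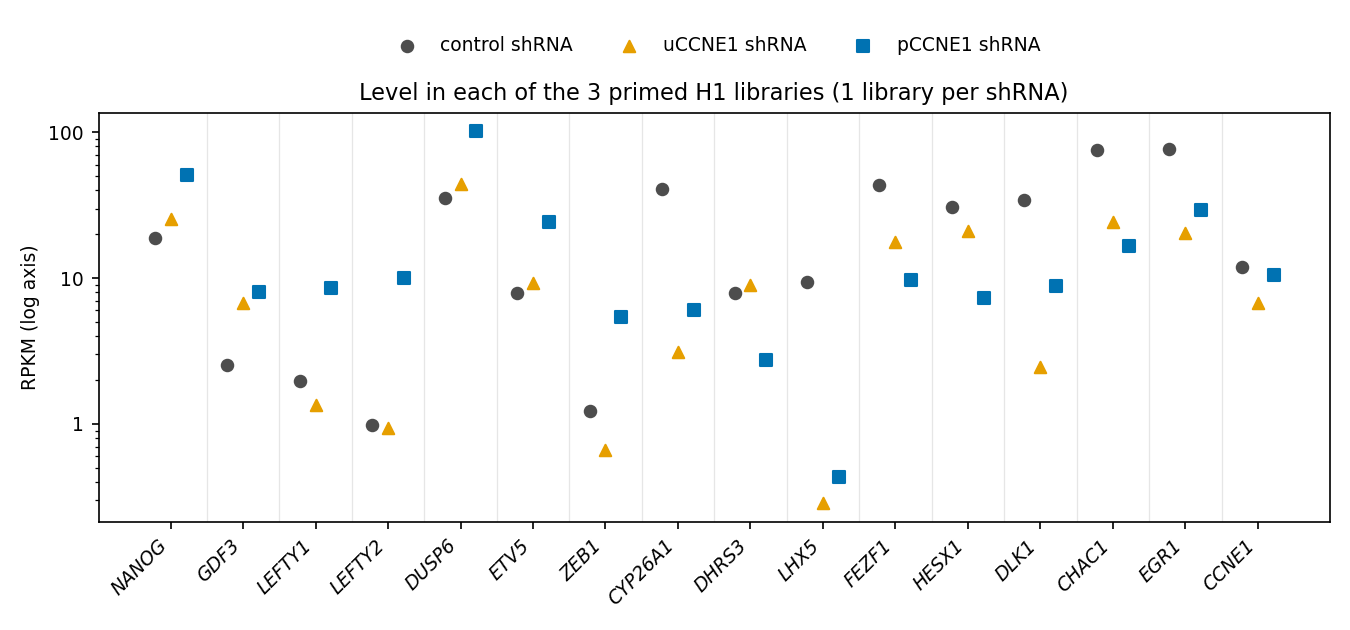
RPKM on a log axis of 16 genes in the 3 primed H1 libraries, 1 point per library and no error bars since each shRNA has a single library. NANOG, LEFTY2 and DUSP6 are highest with the pCCNE1 shRNA (51.2, 10.001 and 101.8 RPKM), and LHX5, CYP26A1, FEZF1 and CHAC1 are highest with the control shRNA (9.48, 41.0, 43.7 and 75.8 RPKM).

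Forebrain regulators carried by primed cultures were lower with the pCCNE1 shRNA. FEZF1, a zinc finger factor of the anterior neural plate, stood at 43.7 RPKM in the control, 17.6 in the uCCNE1 and 9.71 in the pCCNE1 library, 4.50-fold below control (-2.06, corrected -1.78). HESX1, a repressor of the anterior neural ridge and pituitary, stood at 30.7, 20.9 and 7.25 RPKM (-1.94, corrected -2.12). OTX2, needed for forebrain and for the primed state, stood at 84.2, 65.5 and 36.6 RPKM (-1.18, corrected -1.14), and the imprinted Notch ligand-like gene DLK1 at 34.4, 2.45 and 8.89 RPKM (-1.84, corrected -1.68). With LHX5, described above, these were the 5 of 14 compared members at least 2-fold lower, before and after correction, and none was 2-fold higher. LHX5 passed the expression limit only through the control library, so its place among the lower genes follows from that limit. Over all genes compared 3.61% were at least 2-fold lower, and 0.869% after correction.

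The rest of the neural list did not follow. The list's median was -0.41 as deposited and turned to 0.03 after correction, POU3F1 going from -0.76 to 0.38 and SOX3 from -0.28 to 0.41. NES, an intermediate filament of neural progenitors, was at 62.2 and 50.7 RPKM (-0.29, corrected 0.09), and the neural POU factor POU3F2 at 3.08 and 5.04 RPKM (0.56, corrected 0.46). A further 11 members had a mean under 1 RPKM over the 9 libraries and were not compared. Of these the eye field and forebrain factors SIX3 and RAX stood at 5.48 and 0.466 and at 1.26 and 0.194 RPKM in the control and pCCNE1 libraries, LHX2 at 0.885 and 0.209, and the neural stem factor SOX1 at 1.51 and 1.56. Summed over all 25 members the level was 367.6 RPKM in the control, 217.2 in the uCCNE1 and 201.9 in the pCCNE1 library.

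Retinoic acid turns pluripotent cells towards neural and posterior fates, and the CYP26 enzymes limit it. Beside CYP26A1, the retinaldehyde reductase DHRS3, which also lowers retinoic acid, was below control, at 7.93 RPKM in the control, 8.95 in the uCCNE1 and 2.76 in the pCCNE1 library (-1.25, corrected -1.09). CYP26C1, which was not compared for its low mean, stood at 1.18 and 0.028 RPKM. ALDH1A1, which makes retinoic acid, was above control at 0.485 and 2.33 RPKM (1.17, corrected 1.02). The receptors RXRA, RARA and RARG differed by -1.03, -0.52 and -0.45 as deposited and by -0.36, 0.17 and 0.06 corrected. The binding proteins CRABP1 (278.6 and 305.6 RPKM) and CRABP2 (144.3 and 136.1 RPKM) were near level. Of 17 compared members, 1 was at least 2-fold higher and 3 lower, and 1 and 2 after correction, with a median of -0.08 (0.11 corrected). The shares over all genes were 0.924% higher and 3.61% lower as deposited, and 0.978% and 0.869% after correction.

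The enzymes of cholesterol synthesis were higher with the pCCNE1 shRNA along most of the pathway. At the entry to the pathway, HMGCS1 stood at 142.4 RPKM in the control, 159.1 in the uCCNE1 and 352.6 in the pCCNE1 library (1.30, corrected 1.14). IDI1, which makes the reactive isoprenoid unit, stood at 45.9, 57.1 and 91.3 RPKM (0.98, corrected 0.81), and FDFT1, which commits farnesyl units to squalene, at 207.9, 190.8 and 420.4 RPKM (1.01, corrected 0.93). Among the late enzymes, MSMO1, a sterol methyl oxidase, stood at 51.3, 54.4 and 134.2 RPKM (1.37, corrected 1.2) and SC5DL, a sterol desaturase, at 31.6, 32.9 and 66.4 RPKM (1.05, corrected 0.88). In each of these 5 genes the pCCNE1 library was the highest of the 3. The exceptions were on GC-rich transcripts, TM7SF2 (-0.84, corrected -0.25), MVD (-0.61, corrected 0.24), PMVK (-0.51, corrected -0.12) and LSS (-0.24, corrected 0.07). Of the 21 enzymes, all of which were compared, 17 were above 0 and 4 at least 2-fold higher, with a median of 0.54. After correction 19 were above 0, 2 were at least 2-fold higher and the median was 0.55. Over all genes compared 50.9% lay above 0 and 0.924% were at least 2-fold higher. The median of the same enzymes in the uCCNE1 library against the shared control was 0.06.

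**Figure D3:**
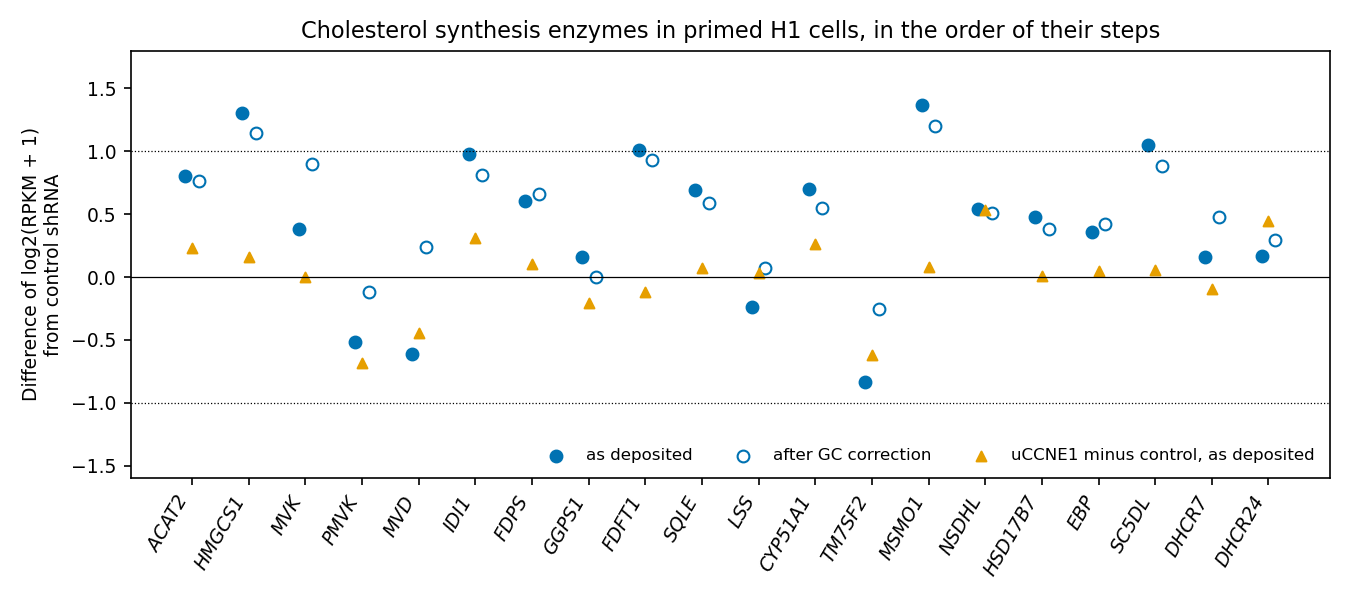
Difference of log2(RPKM + 1) from the control library in primed H1 for 20 of the 21 cholesterol synthesis enzymes, in the order of their steps from left to right, for the pCCNE1 shRNA as deposited (filled circles) and after GC correction (open circles) and for the uCCNE1 shRNA (triangles). HMGCS1 (1.30) and MSMO1 (1.37) lie highest, and TM7SF2 (-0.84) lies lowest before correction.

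Cholesterol enzymes are controlled by SREBP factors, which act with the CCAAT-binding factor NF-Y. Promoters were read from RefSeq (GRCh38.p14), 250 bases before to 50 after a gene start, and 16 of the 21 enzymes had an entry. A single window was kept per gene symbol, that of the lowest coordinate, so any other start of a gene was not searched. This holds for every motif count below. The pentamer CCAAT, on either strand, was present in 12 of these 16 (75%) and in 35.6% of all 27305 promoters. Of the 12, TM7SF2, MVD and LSS lay below control as deposited and the others above. Whether the pentamer goes with the direction of the difference was not tested. The sterol element letters TCACNCCAC were in none of the 16, in SREBF2 alone of 17 sterol sensing genes, and in 1.17% of all promoters. The 250 bases before the start of MSMO1 (chr4:165327419-165327668, plus strand) and of IDI1 (chr10:1048887-1049136, minus strand) are shown because these enzymes were among the highest, with each CCAAT or its complement in capitals. MSMO1 holds 4 matches and IDI1 3, of which 2 overlap.
MSMO1: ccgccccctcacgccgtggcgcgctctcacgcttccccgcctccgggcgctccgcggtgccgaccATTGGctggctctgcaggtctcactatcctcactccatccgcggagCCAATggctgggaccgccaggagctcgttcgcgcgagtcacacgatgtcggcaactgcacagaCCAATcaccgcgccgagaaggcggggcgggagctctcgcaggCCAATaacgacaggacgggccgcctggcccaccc
IDI1: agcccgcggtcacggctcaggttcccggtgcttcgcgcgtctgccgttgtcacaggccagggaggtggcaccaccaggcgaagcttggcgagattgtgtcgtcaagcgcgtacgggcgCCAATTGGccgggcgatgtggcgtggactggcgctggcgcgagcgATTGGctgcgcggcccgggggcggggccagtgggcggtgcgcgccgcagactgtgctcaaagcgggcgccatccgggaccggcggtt
A match describes letters and no binding. The GC content of these windows, 70.0% and 72%, is not that of the transcripts used for the correction.

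Genes that sense and carry sterols differed in both directions. INSIG1, which holds SREBP in the endoplasmic reticulum and is itself an SREBP target, stood at 27.9 RPKM in the control, 25.8 in the uCCNE1 and 65.7 in the pCCNE1 library (1.21, corrected 1.1). The sterol carrier STARD4 stood at 19.6, 19.8 and 35.3 RPKM (0.82, corrected 0.61). SREBF2, the SREBP of cholesterol synthesis, was near level (83.3 and 73.9 RPKM, -0.17, corrected 0.12), while SREBF1, that of fatty acid synthesis, was at 13.7 and 4.77 RPKM (-1.35, corrected -0.57). The exporter ABCA1, a target of the oxysterol receptors, stood at 3.28 and 1.99 RPKM (-0.52, corrected -0.63). Of 18 compared members 1 was at least 2-fold higher and 2 lower, and after correction 1 and none, with medians of 0.18 and 0.37. Among 14 fatty acid genes, ACSS2, which makes acetyl-CoA from acetate, stood at 18.1, 11.3 and 49.4 RPKM (1.40, corrected 1.47) and the desaturase SCD at 280.1, 303.2 and 428.1 RPKM (0.61, corrected 0.51). The synthase FASN went the other way, at 73.8, 43.1 and 28.4 RPKM (-1.34, corrected -0.52), and 12 of the 14 were above 0, with a median of 0.33 in both forms.

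Targets of ATF4, the factor that answers amino acid shortage and other stress, were lower with the pCCNE1 shRNA. CHAC1, which degrades glutathione, stood at 75.8 RPKM in the control, 24.4 in the uCCNE1 and 16.6 in the pCCNE1 library (-2.12, corrected -1.49). The amino acid transporter SLC7A5 stood at 86.1, 66.9 and 25.7 RPKM (-1.71, corrected -1.19), and the cystine transporter SLC7A11, on a GC-poor transcript, at 14.9, 9.23 and 7.89 RPKM (-0.84, corrected -1.03). SESN2, a leucine sensor that restrains mTORC1, stood at 24.4, 11.3 and 7.68 RPKM (-1.55, corrected -1.15), and the hormone STC2 at 37.9, 17.009 and 14.96 RPKM (-1.29 in both forms). Of the serine and asparagine enzymes, PSAT1 stood at 284.8 and 178.7 RPKM (-0.67, corrected -0.78), PSPH at 33.1 and 19.4 (-0.74, corrected -0.79), ASNS at 152.9 and 113.9 (-0.42, corrected -0.55) and PHGDH at 342.1 and 277.9 (-0.30, corrected -0.04). ATF4 mRNA was near level at 335.1 and 370.2 RPKM (0.14, corrected 0.35). ATF4 is largely controlled in translation, which these data do not measure. Of 25 compared members, 24 lay below 0 and 7 were at least 2-fold lower (3.61% of all genes were), with a median of -0.67, and after correction 23 lay below 0 and 5 were 2-fold lower, with a median of -0.55. The uCCNE1 library was also lower, with a median of -0.51 against the shared control.

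The amino acid response letters TGATGNAA, on either strand, stood in 3 of the 20 promoters of this list with a RefSeq entry (ATF3, CHAC1 and FGF21; 15%) and in 3.75% of all promoters. Since the list was drawn up from genes of that response, a higher share was partly built into the choice. The 250 bases before the start of CHAC1 (chr15:40953221-40953470, plus strand, GRCh38.p14) are shown with the match in capitals, since this was the lowest member.
CHAC1: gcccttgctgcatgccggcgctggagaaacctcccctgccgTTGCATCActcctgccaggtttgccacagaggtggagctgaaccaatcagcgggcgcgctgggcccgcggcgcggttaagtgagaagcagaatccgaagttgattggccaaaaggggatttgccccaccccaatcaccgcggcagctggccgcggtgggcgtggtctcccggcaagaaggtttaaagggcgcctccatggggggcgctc

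Genes of the actin cytoskeleton and targets of SRF and YAP, which read actin state and cell tension, were mostly lower. The cytoplasmic actins ACTB and ACTG1 stood at 2083 and 1414 RPKM (-0.56, corrected -0.42) and at 1492 and 1048 RPKM (-0.51, corrected -0.36). Tropomyosin TPM1 stood at 211.9 RPKM in the control, 244.1 in the uCCNE1 and 118.3 in the pCCNE1 library (-0.84, corrected -0.80), filamin FLNA at 129, 99.97 and 63.7 RPKM (-1.01, corrected -0.40) and the matrix protein THBS1, a YAP target, at 12.4, 11.2 and 6.19 RPKM (-0.90, corrected -1.02). The YAP targets CYR61 and CTGF stood at 42.5 and 29.3 RPKM (-0.52, corrected -0.56) and at 51.0 and 43.4 RPKM (-0.23 in both forms), and ANKRD1 at 1.78 and 2.52 RPKM (0.34, corrected 0.20). Of 22 members 19 lay below 0 and 3 were at least 2-fold lower, namely EGR1, FOS and FLNA, where 3.61% of all genes were. After correction 17 lay below 0 and 3 were 2-fold lower, namely EGR1, FOS and THBS1, against 0.869% of all genes, and the median went from -0.51 to -0.25. The CArG box, the site read by SRF, stood in 6 of 19 promoters of the list (31.6%) and in 1.31% of all. Since the list was drawn up in part from SRF targets, a higher share was built into the choice. Of these 6 genes, TPM4 lay above control (0.19) and the others below, as did most of the list. Whether the box goes with the direction of the difference was not tested. EGR1 has 2 CArG boxes in the 250 bases before its start (chr5:138465229-138465478, plus strand, GRCh38.p14), shown in capitals.
EGR1: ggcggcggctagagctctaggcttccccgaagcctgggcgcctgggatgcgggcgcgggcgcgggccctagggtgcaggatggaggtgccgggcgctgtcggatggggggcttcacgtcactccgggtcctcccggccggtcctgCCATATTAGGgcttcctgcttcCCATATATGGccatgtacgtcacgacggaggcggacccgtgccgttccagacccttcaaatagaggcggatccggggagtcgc

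Mitotic genes lay slightly higher and replication genes slightly lower, with small differences. PTTG1, the securin that guards sister chromatids, stood at 125.4 RPKM in the control, 91.2 in the uCCNE1 and 222.2 in the pCCNE1 library (0.82, corrected 0.71), the mitotic kinase CDK1 at 58.2, 42.6 and 95.7 RPKM (0.71, corrected 0.52) and topoisomerase TOP2A at 102.8, 72.5 and 153.4 RPKM (0.57, corrected 0.41). Of 24 members 21 lay above 0 (20 corrected), with a median of 0.32 (0.24 corrected), and none was apart by 2-fold. The replication list had a median of -0.14 (-0.22 corrected), with 21 of 29 below 0 (25 corrected). MCM5, a subunit of the replicative helicase, stood at 68.4 and 32.9 RPKM (-1.03, corrected -0.83), and its partners MCM2, MCM3 and MCM7 differed by -0.60, -0.06 and -0.10 (corrected -0.30, -0.06 and 0.20). The polymerase subunit POLD1 (-1.33, corrected -0.54) and the licensing factor CDT1 (-1.18, corrected -0.38) were the lowest as deposited. As deposited 4 of the 29 members were at least 2-fold lower, where 3.61% of all genes were, and after correction none was.

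**Figure D4:**
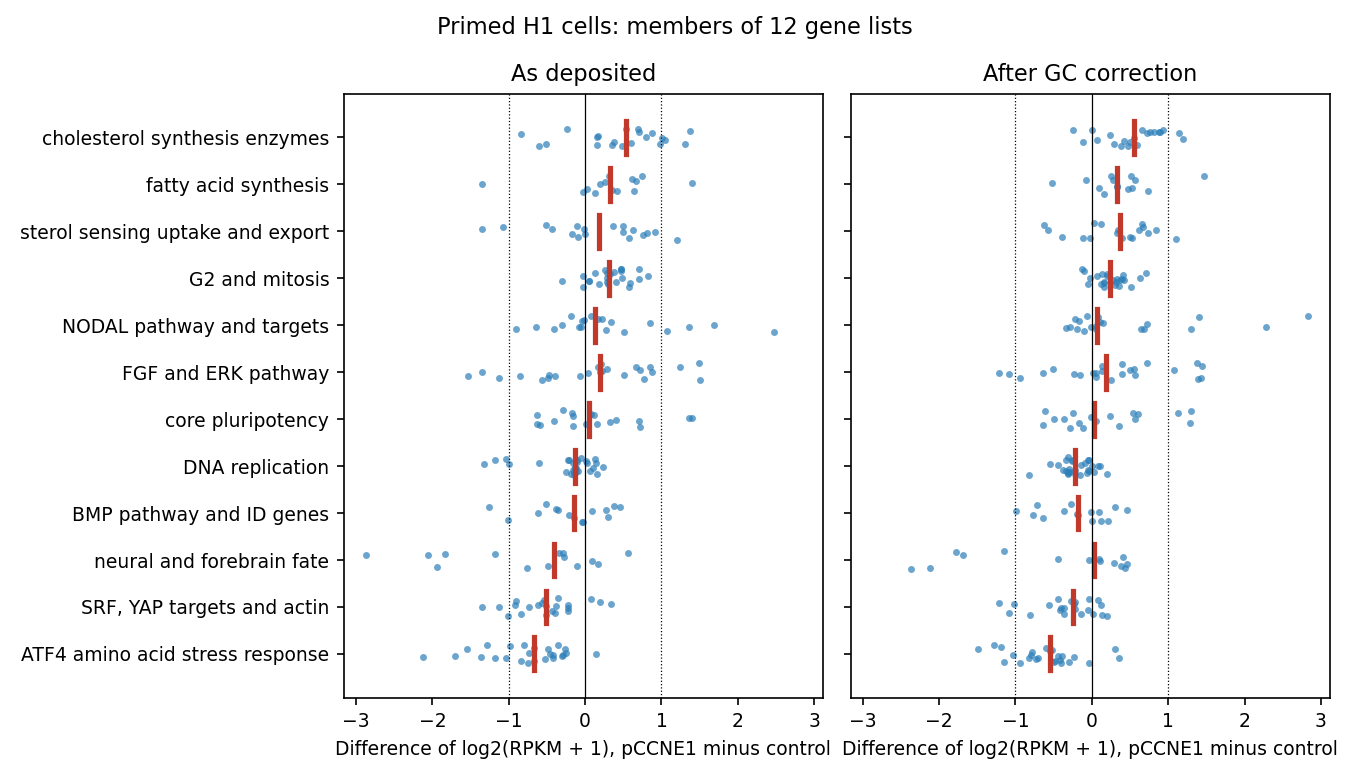
Differences of log2(RPKM + 1), pCCNE1 minus control in primed H1, for the compared members of 12 gene lists (points, with vertical jitter) and their medians (red bars), as deposited on the left and after GC correction on the right, with dotted lines at a 2-fold change. The cholesterol median lies at 0.54 and 0.55, the ATF4 median at -0.67 and -0.55, and the neural median goes from -0.41 to 0.03.

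Among the genes of epithelial and mesenchymal state, the repressor ZEB1 stood out, at 1.23 RPKM in the control, 0.667 in the uCCNE1 and 5.40 in the pCCNE1 library (1.52, corrected 1.35). Its target CDH1, the epithelial cadherin, stood at 87.4, 95.5 and 65.9 RPKM (-0.40, corrected -0.48), while CDH2 (33.4 and 35.5 RPKM) and vimentin VIM (172.3 and 189.7 RPKM) were near level. The tight junction proteins CLDN3 and CLDN4 stood at 7.31 and 1.35 RPKM (-1.82, corrected -0.73) and at 12.1 and 3.65 RPKM (-1.50, corrected -1.02). Of 22 members 1 was at least 2-fold higher and 2 lower, and after correction 1 and 1, with a median of -0.11 (-0.18 corrected).

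BMP and WNT genes moved less. ID1 and ID3, which BMP signals switch on, stood at 44.7, 21.7 and 18.1 RPKM and at 88.4, 66.1 and 43.3 RPKM in the control, uCCNE1 and pCCNE1 libraries (-1.26, corrected -0.99, and -1.01, corrected -0.77). BMP4, a ligand, stood at 1.99 and 1.33 RPKM and the receptor BMPR1A at 14.6 and 20.5. Of 15 compared members 2 were at least 2-fold lower as deposited and none after correction, and the median was -0.15 (-0.19 corrected). Of 22 compared WNT genes none was apart by 2-fold in either form, and the median went from -0.21 to -0.03. The Frizzled receptor FZD7 stood at 93.6 and 51.2 RPKM (-0.86, corrected -0.82) and AXIN2, a general target of the pathway, at 6.66 and 6.78 RPKM (0.02, corrected 0.07).

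In the interferon, p53 and chaperone lists 1 or 2 genes each were apart as deposited. The ubiquitin-like ISG15 stood at 10.2, 2.14 and 1.68 RPKM (-2.06, corrected -1.31), and MX1 at 2.68 and 1.64 RPKM in the control and pCCNE1 libraries (-0.48, corrected -0.44). The 17 compared interferon-induced genes had a median of -0.48 (-0.18 corrected), with 1 at least 2-fold lower in either form. The death receptor FAS stood at 3.43, 1.45 and 0.910 RPKM (-1.22, corrected -1.38) and the BH3 protein BBC3, on a GC-rich transcript, at 6.19, 2.14 and 1.77 RPKM (-1.38, corrected -0.25). The other p53 targets MDM2 (5.72 and 6.64 RPKM) and CDKN1A (0.928 and 0.629 RPKM) did not share this, and the 22 members had a median of -0.18 (-0.05 corrected). EDEM1, which helps to clear misfolded proteins, was the one of 20 compared chaperone and unfolded protein genes apart by 2-fold, at 4.25 and 10.6 RPKM (1.14, corrected 1.02). The glycolytic kinase PGK1 (265.8 and 566.2 RPKM; 1.09, corrected 0.95) and the hypoxia-induced BNIP3 (31.6 and 64.9 RPKM; 1.02, corrected 0.90) were above control, and the 24 compared genes of that list had a median of 0.23 (0.35 corrected).

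Imprinted genes and enhancer cofactors completed the account. Beside DLK1, the imprinted NNAT stood at 121.5, 84.4 and 51.9 RPKM (-1.21, corrected -0.93) and the noncoding MEG3, from the same imprinted cluster as DLK1, at 1.60, 0.308 and 0.245 RPKM (-1.06, corrected -0.79). Of 17 compared imprinted genes 3 were at least 2-fold lower and after correction 1, against 3.61% and 0.869% of all genes. Mediator and other enhancer cofactors were near level, with a median of -0.01 (-0.09 corrected) over 26 genes. EP300 stood at 22.4 and 18.8 RPKM (-0.24, corrected -0.23), and MED16, on a GC-rich transcript, was the only member 2-fold lower, at 10.6 and 3.76 RPKM (-1.28, corrected -0.47).

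Of the primed state markers 3 were apart by 2-fold, and smaller differences lay on both sides of control. THY1, a surface glycoprotein, stood at 94.5, 122.6 and 194.7 RPKM in the control, uCCNE1 and pCCNE1 libraries (1.03, corrected 1.29), and with DUSP6 it was one of 2 members at least 2-fold higher, while OTX2 was the 1 lower, among 19 compared. The list's median was 0.10 (0.15 corrected). Naive markers allow no such reading, since 17 of the 19 were under 1 RPKM in both libraries, where a 2-fold change on this scale cannot be reached.

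Markers of other lineages were low and few passed the expression limit. APOA2 and APOA1, lipoproteins of endoderm and liver, stood at 2.87 and 0.661 RPKM (-1.22, corrected -1.16) and at 2.10 and 0.108 RPKM (-1.49, corrected -0.85), and all 8 compared mesendoderm and endoderm genes lay below 0. KRT7, a keratin of trophoblast and other epithelia, stood at 10.004 and 4.38 RPKM, while CGA, ELF5 and XAGE2 were at 0 in both libraries. Of 5 compared trophoblast genes 1 was 2-fold lower as deposited and none after correction, of 5 mesoderm genes none was apart, and of 6 neural crest genes none was apart as deposited and FOXD3 was 2-fold higher after correction (0.40, corrected 1.13).

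The remaining lists each held at most 2 genes apart. Of 20 heat shock genes HSPB1 (59.7 and 24.7 RPKM; -1.24, corrected -0.48) and HSF1 were 2-fold lower as deposited and none after correction, with a median of 0.16 (0.12 corrected). Of 22 chromatin genes UHRF1, which guides maintenance DNA methylation, was 2-fold lower as deposited (9.59 and 4.13 RPKM; -1.05, corrected -0.88), and of 20 MYC and ribosome biogenesis genes BOP1 was. Neither list held a gene apart after correction, and their medians were -0.08 (-0.07 corrected) and 0.02 (-0.03 corrected). Of 15 compared oxidative stress and metallothionein genes none was apart as deposited. After correction 1 was 2-fold higher (MT1E) and 1 lower (SLC7A11), and the median went from 0.27 to 0.48. Replication-dependent histone genes, many of whose transcripts lack a poly(A) tail, had a median of -0.17 as deposited that turned to 0.23 after correction over 17 genes. Of these 1 was 2-fold higher and 1 lower as deposited, and 1 and none after correction.

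The pCCNE1 shRNA was also used in the naive cultures, each against its own control library. The difference between the primed effect and the naive effect was the one contrast tested here. Across genes, Pearson's r of the primed difference was -0.057 with that in 5iLA and 0.192 with that in t2iGo, given without a p since genes are not replicates. The limma test used all 9 libraries and 2 residual degrees of freedom. Its spread comes from how 5iLA and t2iGo disagree, and the primed libraries are assumed to vary alike. The labels describe the primed libraries by a naming scheme of their own, so a separate preparation and the primed state cannot be told apart. After Benjamini-Hochberg adjustment the effect was higher in primed than in naive for 14 genes (0.116%) and lower for 13 (0.107%), against 811 genes at an unadjusted p under 0.05. Of the 27, 12 were coding, and after GC correction 12 of the 27 still passed, 2 of them coding, PKIB and CYP26A1. Of the 15 noncoding genes, 7 were under 1 RPKM in all 6 naive libraries and 5 of these were at 0 there. For them the spread of the test comes from values at or near 0, so passing it carries little weight.

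PKIB was lower with the pCCNE1 shRNA in primed cells and higher in both naive cultures. Its levels in 5iLA were 4.55 RPKM with the control and 7.09 with the pCCNE1 shRNA, and in t2iGo 0.506 and 1.05. The primed minus naive difference was -3.52 ± 0.36 (SE; adjusted p 0.00521 by limma, 0.0272 after GC correction). It passed under 5 of 9 alternative settings, with adjusted p from 1.4e-08 to 0.163. CYP26A1 stood at 0.178 and 0.224 RPKM in 5iLA and at 3.41 and 4.77 in t2iGo, and its primed minus naive difference was -2.81 ± 0.38 (SE; adjusted p 0.0298 by limma, 0.0272 after GC correction). It passed under 3 of 9 settings, with adjusted p from 2.4e-05 to 0.213.

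For 8 of the 12 coding genes the test says little, because all 6 naive libraries were under 1 RPKM. These were LHX5, FEZF1, CLDN3, GNA14, CXCL5, FAM71F1, AMDHD2 and C6orf141, which passed the expression limit only through the primed libraries. Their naive differences are near 0 for want of transcript and the spread of the test is squeezed with them, so their p-values are not given as support. CLDN3 was listed at 0 in every naive library, and LHX5 at 0 in the 5iLA control and 0.0344 RPKM in the t2iGo control. SNX15 was also low there, between 0.434 and 0.866 RPKM in the naive controls. RPS10-NUDT3 was not, at 3.69 RPKM in the 5iLA control and 12.9 in the t2iGo control, above its primed control, but a read-through gene shares reads with the genes it joins. NANOG differed by 1.40 in primed, -0.79 in 5iLA and -2.17 in t2iGo, but its test did not pass (adjusted p 0.18 by limma), nor did ACSS2 (1.40, -1.21 and -0.72, adjusted p 0.12 by limma).

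The lists can be set side by side over the cultures, which share no control library with each other. The median over all genes was -0.30 in 5iLA and -0.11 in t2iGo, so list medians are read against these. Cholesterol enzymes had a median of 0.54 in primed, -0.50 in 5iLA and -0.36 in t2iGo. ATF4 targets had -0.67, -0.90 and -0.26, and the actin, SRF and YAP list -0.51, 0.11 and 0.27. No member of these 3 lists passed the primed minus naive test, and the list medians were not tested.

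**Figure D5:**
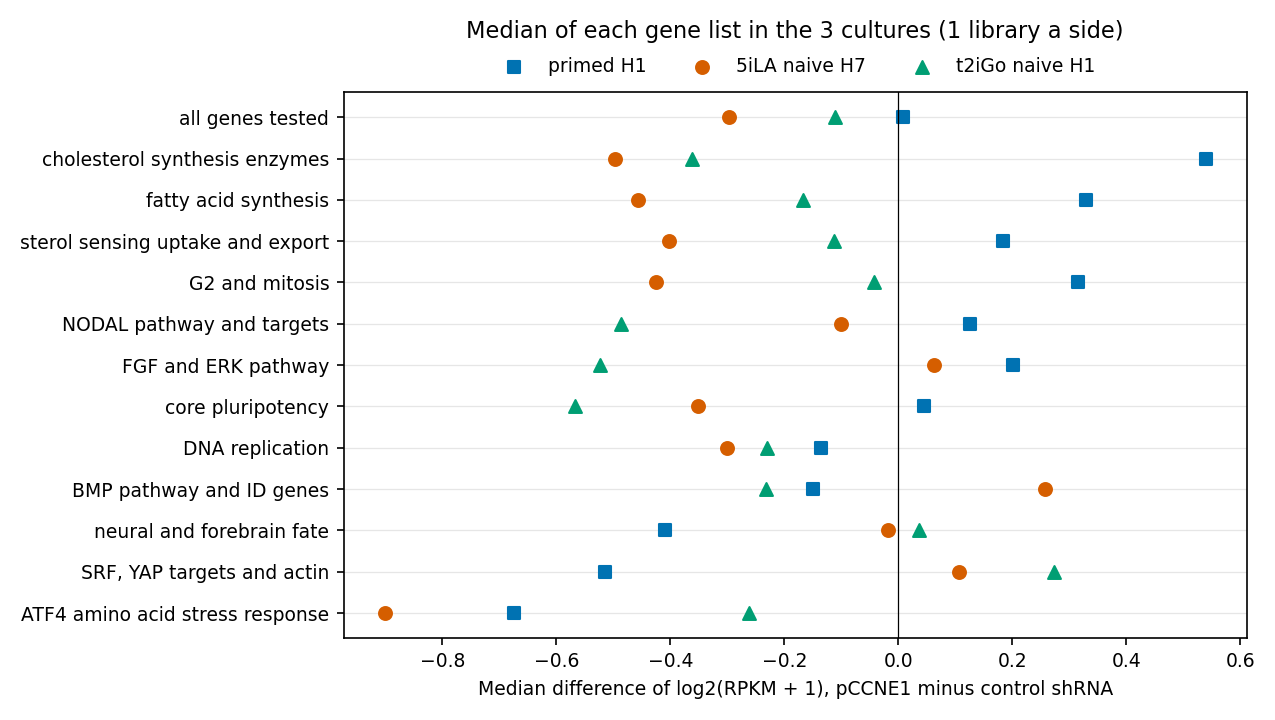
Median difference of log2(RPKM + 1), pCCNE1 minus the control shRNA of the same culture, for 12 gene lists and for all genes compared, in primed H1 (squares), 5iLA naive H7 (circles) and t2iGo naive H1 (triangles), with 1 library on each side and no error bars. Cholesterol enzymes lie at 0.54 in primed H1 and at -0.50 and -0.36 in the naive cultures, and ATF4 targets lie below 0 in the 3 cultures.

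The thresholds passed through dense ground. SULF1 (5.58 and 12.2 RPKM) lay just inside the 2-fold line at 1.0001 and IL17RD (11.5 and 24.0 RPKM) just outside at 0.9999. On the lower side the thymidine kinase TK1 (31.5 and 15.2 RPKM) lay just inside at -1.0004 and the ETS repressor ERF (16.1 and 7.55 RPKM) just outside at -0.998. At the expression limit, ZNF716, at 0 in both primed libraries, was the last gene kept, and SSTR2 (3.29 and 2.51 RPKM), with a mean of 0.9997, was the first left out.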

How the data were processed

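Per the labels' protocols, an RNeasy Mini kit gave the RNA and a TruSeq RNA kit the libraries. The authors deposited gene-level RPKM values, and TopHat2 2.3.0, Cufflinks 1.2.1 and the hg19 build are named per the submitters' processing notes. What each tool did, and whether strand was counted, is not given in the sources used here. Values were analysed as log2(RPKM + 1) for genes with a mean of at least 1 RPKM over the 9 shRNA libraries. GC content and length were those of GENCODE transcripts, found by RefSeq accession for 21905 genes and by symbol for 770, while 612 had none. The GC correction subtracted a lowess trend (span 0.3, statsmodels 0.14.6) from each primed difference. For the GC-corrected primed minus naive test, such a trend was instead fitted to each library's deviation from the gene means over the 9 libraries. It was then subtracted library by library. The primed minus naive contrast was fitted with limma 3.58.1 in R 4.3.3 with an intensity trend, over culture and shRNA terms, with Benjamini-Hochberg adjustment at 0.05. On simulated data this test called 71 of 100 genes with a log2 change of 1, 100 of 100 with a change of 2, and 8 of 11916 unchanged genes. The simulation gave every gene the same noise and the naive cultures no shRNA effect. Since the real naive cultures disagree, these counts are not the power or error rate of the test here. On a simulated GC trend the correction recovered 200 of 200 genes with a log2 change of 2. Those genes were placed without regard to GC content and the noise was small. The simulation does not cover changes that go with GC content.

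Genes named were CCNE1 and CCNE2, the 15 largest differences in each direction among coding genes with 5 RPKM or more in either library, the same after correction (added once values were seen), up to 8 members of each of 36 lists with those that order the account, and the 5 smallest p in each direction of the primed minus naive test. The members and lists were chosen with earlier results of these data known. Nothing says that libraries came from separate cultures, so p-values cover a spread that may be technical. Alternatives were another pseudocount, other expression limits, 3 other scalings, coding genes alone, the GC correction and the test without the uCCNE1 libraries. The untreated H7 libraries were not used here, and a few list members are counted but not reported here by name.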

Additional observations from a re-analysis of the deposited data

Results flagged for a closer look

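The difference between the pCCNE1 effect in primed H1 and in the naive cultures passed the limma test for 27 genes, of which the 19 named are given as primed minus naive on the log2(RPKM + 1) scale.

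These values compare shRNA effects and not levels. Coding genes with a lower pCCNE1 effect in primed than in naive were PKIB (-3.52), LHX5 (-2.85), CYP26A1 (-2.81), SNX15 (-2.49), FAM71F1 (-2.34), C6orf141 (-2.16), FEZF1 (-2.06), AMDHD2 (-1.96) and CLDN3 (-1.82). Coding genes with a higher effect in primed were RPS10-NUDT3 (3.11), GNA14 (2.68) and CXCL5 (1.84). The test passed under 1 of 8 alternative settings for FAM71F1, SNX15, AMDHD2 and C6orf141, and under 5 of 9 for PKIB. LHX5, FEZF1, CLDN3, GNA14, CXCL5, FAM71F1, AMDHD2 and C6orf141 were under 1 RPKM in all 6 naive libraries, so for these 8 the spread of the test comes from near-zero values and passing it carries little weight.

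Short RNAs and an antisense RNA had larger differences. The effect was higher in primed for SNORA45 (8.98), SNORA6 (8.16), MIR671 (4.29), SNORA4 (4.15) and SNORA72 (3.96), and lower for PCNA-AS1 (-5.02) and SNORA42 (-3.85). SNORA45 was listed at 0 in the primed control and at 30.9 RPKM with the pCCNE1 shRNA, and at 13.2 RPKM in the 5iLA control and 0 with the pCCNE1 shRNA there. PCNA-AS1 was at 31.4 RPKM in the primed control and at 0 in the other 8 shRNA libraries. SNORA72, SNORA42, SNORA4 and MIR671 were likewise at 0 in every naive library. Like PCNA-AS1, they passed the expression limit only through primed libraries. The spread of the test comes from zeros for them, so passing it carries little weight. All the transcripts named in this paragraph are short or overlap a coding gene on the other strand, and their RPKM values are uncertain.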

How the results depend on the processing

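No paired analysis was possible because each group has 1 library and the labels give no replicate numbers. The number of genes at least 2-fold higher in primed H1 was 112, and 203 with a pseudocount of 0.1 RPKM and 62 at a mean of at least 5 RPKM. The number at least 2-fold lower was 437, and 679 with that pseudocount, 187 at that mean, 272 with coding genes scaled to a common sum and 104 after GC correction. Calls in the primed minus naive test numbered 14 higher and 13 lower. Higher calls became 239 with no filter, 48 at a mean of at least 5 RPKM, 7 with median-ratio scaling, 8 with quantile normalization, 8 with coding genes scaled to a common sum and 9 after GC correction. Lower calls became 337, 22, 2, 2, 2 and 3 in the same order, 5 with the pseudocount of 0.1 RPKM, 26 over coding entries only and 3 without the uCCNE1 libraries. With no filter the GC trend went from -0.592 to -0.48 and the chromosome 19 median from -0.346 to -0.105, and after GC correction the latter was -0.071. Lists whose median lay at least 0.3 from that of all genes numbered 7, and 12 with the pseudocount of 0.1 RPKM. The median of the neural and forebrain list reversed from -0.41 to 0.029 after GC correction. The causes of these changes were not tested, beyond the smaller or larger number of genes compared. Of 104 named genes past 2-fold with a GC value, 72 stayed past it after the correction and none changed sign. Some of these genes were named for their corrected difference, so this share is raised by the choice. Among all genes compared, 90 of 108 higher and 94 of 434 lower genes stayed past 2-fold.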

Other observations

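Families grouped by symbol were chosen after their values were seen. NDUFB7 and NDUFS7, low in the account above, belong to respiratory complex I. Of 36 complex I genes 4 were at least 2-fold lower in primed H1, where 3.61% of all genes were, and 21 lay below 0, with a median of -0.19 (-0.14 corrected, 2 still 2-fold lower, against 0.869% of all genes). Of 83 cytosolic ribosomal protein genes, whose reads pseudogenes can share, 9 were at least 2-fold lower and 1 higher, with a median of -0.09 (-0.14 corrected). The 14 ATP synthase genes had a median of 0.19 (0.06 corrected), with ATP5D the 1 member 2-fold lower. The 75 mitochondrial ribosomal protein genes had a median of -0.02, with 4 at least 2-fold lower, a share near that of all genes, and none after correction. The 401 ZNF zinc finger genes, many of them on chromosome 19 but not limited to it, had a median of 0.05 (-0.03 corrected). All compared genes of that chromosome had a median of -0.35 (-0.07 corrected). The median GC content was 43.3% for the ZNF genes and 58.5% for the chromosome.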
